A study of Mus musculus with 12 samples.

Results

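The JAK, STAT and SOCS genes described here are 10 members of the cytokine signalling pathway: the kinases Jak1 and Jak3, the transcription factors Stat3, Stat4, Stat5a, Stat5b and Stat6, and the inhibitors Socs1, Socs3 and Cish. They were chosen by gene symbol and not by their values, and all 10 were found among the 23284 genes of each deposited expression table. Their RNA was measured in natural killer T (NKT) cells, a lymphocyte type whose T cell receptor reads lipids on CD1d, from thymus and liver. The mice were of the C57BL/6 strain, and the labels state no age. The cKO cells came from mice carrying the E8III-Cre transgene and a floxed Rag2 gene, in which Cre deletes Rag2 at the CD4+CD8+ double-positive (DP) stage, so that the study calls their NKT cells of double-negative (DN) origin. The YFP+ cells came from mice carrying the same E8III-Cre transgene and a Rosa26-loxP-STOP-loxP reporter with no floxed Rag2, and mark NKT cells that passed through the DP stage. Both groups thus carry E8III-Cre, and both were sorted as live CD45R-, CD4-, CD8-, TCRb+ cells binding a CD1d dimer. There were 3 libraries of each of the 4 groups, 12 in all, and the labels do not say whether a library is 1 mouse or a pool, so the spread between libraries may be technical in part.

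A cytokine brings receptor chains together, the Janus kinases bound to those chains become active, and they phosphorylate STAT proteins, which pair, enter the nucleus and switch on target genes. Cish and the SOCS genes are among those targets, and their proteins in turn block the receptor or the kinase, which closes a feedback loop. In NKT cells the pathway is known for interleukin 15 signals through Il2rb and the common gamma chain Il2rg (Jak1, Jak3 and the STAT5 proteins), for interleukin 12 signals through Stat4 to Ifng, and for interleukin 4 signals through Stat6.

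STAT proteins bind short palindromes of which TTCNNNGAA is the shared core, and the promoters of Cish and Socs3 are shown because they carry that core. RefSeq promoter sequences (GRCm38.p6) matched all 10 genes with 13 start sites, and each was read from 250 bases before to 30 bases after the start site, a window of 280 bases. The core, which reads the same on both strands, was present in the windows of Cish and Socs3 and in none of the windows of the other 8 genes. The wider spacing TTCNNNNGAA, which Stat6 is known to favour, was in no window of the 10 genes. Among all 32841 promoter windows of this length, 7.835% held TTCNNNGAA and 6.498% held TTCNNNNGAA. Such a match is a stretch of letters and not a measured binding site. The core is in capitals in both sequences, written 5′ to 3′ on the gene's strand. Cish lies on the plus strand at chr9:107296409-107296688 and Socs3 on the minus strand at chr11:117969337-117969616.
Cish: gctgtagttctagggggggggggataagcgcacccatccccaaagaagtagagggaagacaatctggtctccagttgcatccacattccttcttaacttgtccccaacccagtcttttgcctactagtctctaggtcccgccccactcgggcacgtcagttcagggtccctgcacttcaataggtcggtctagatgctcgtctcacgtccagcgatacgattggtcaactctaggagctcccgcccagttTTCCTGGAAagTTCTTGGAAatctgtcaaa
Socs3: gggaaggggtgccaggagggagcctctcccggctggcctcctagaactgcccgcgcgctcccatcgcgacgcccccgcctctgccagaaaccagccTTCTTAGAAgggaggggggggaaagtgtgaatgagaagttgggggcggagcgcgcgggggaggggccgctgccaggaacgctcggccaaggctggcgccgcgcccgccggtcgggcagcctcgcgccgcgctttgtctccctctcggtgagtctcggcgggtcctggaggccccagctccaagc
The Cish window held 2 cores, the first beginning at the start site (position 251 of the window) and the second at position 262. The single core of Socs3 began 154 bases upstream of the start site, at position 97 of the window.

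Expression was deposited as FPKM, fragments scaled to transcript length and to the mapped total of the library, in 1 table per tissue. The tables were normalized separately, so levels are set side by side between tissues but not tested. The thymus table is named paired and the liver table single. If these words stand for paired-end and single-end reads, read layout cannot be told apart from tissue in any comparison of levels. Groups follow the sample titles and the column headers. The description field of all 6 liver libraries names the opposite mouse, and if it were right every liver direction given here would turn round. Rag2, the targeted gene, was listed at 0 in all 3 liver cKO libraries, against 1.37, 0.985 and 1.08 FPKM in liver YFP+ libraries. In the thymus it was listed at 0 in 5 of the 6 libraries and at 0.015 FPKM in thymus cKO replicate 2, so it does not check the thymus labels. Other DP thymocyte genes, not targeted, were also lower in liver cKO libraries. Rag1 was at 0.146 to 0.223 against 1.33 to 1.96 FPKM, and Dntt at 0.385 to 0.768 against 15.7 to 16.4 FPKM. All 7 DP thymocyte genes tested were called lower there, so Rag2 does not check the liver labels either. The NKT marker list summed to 1255 to 1318 FPKM in thymus cKO against 1544 to 1746 FPKM in thymus YFP+ libraries, and to 3502 to 3540 FPKM in liver cKO against 3691 to 4134 FPKM in liver YFP+ libraries, with all 10 of its genes detected in every group. Differences are given on the log2(FPKM + 1) scale as cKO minus YFP+, with the adjusted p of limma-trend over all genes tested, and a gene was called at an adjusted p below 0.05. In sorted bulk RNA, fewer cells of a type and less RNA per cell cannot be told apart.

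Some libraries and marker lists stood apart. Thymus cKO replicate 1 summed to 664 FPKM over 20 interferon-stimulated genes, against 121 and 235 FPKM in the other cKO libraries and 313 to 344 FPKM in YFP+ libraries, and to 108 FPKM over erythroid markers, against at most 14.3 FPKM in any other thymus library. Immediate early genes are those a cell switches on within minutes of a stimulus. The list of 20 genes used here as immediate early includes the heat shock genes Hspa1a and Hspa1b. It summed to 1331, 3539 and 3671 FPKM in thymus cKO libraries and 762 to 1149 FPKM in thymus YFP+ libraries. In the liver it summed to 339 to 360 FPKM in cKO libraries and 624 to 793 FPKM in YFP+ libraries. Hspa1a was at 90.7, 743 and 751 FPKM and Hspa1b at 108, 857 and 935 FPKM in thymus cKO libraries. In thymus YFP+ libraries they were at most at 6.18 and 7.22 FPKM. In the liver Hspa1a and Hspa1b averaged 1.29 and 1.19 FPKM in cKO and 1.115 and 0.992 FPKM in YFP+ libraries. They thus had no part in the lower liver cKO sum. The list was not summed without them, so how far the thymus groups stay apart without them is not given. Of 17 genes of the immediate early list tested, 10 (58.8%) were called higher in thymus cKO cells, Hspa1a and Hspa1b among them, against 2.64% of all genes. A further 1 (5.88%) was called lower there, against 13.1% of all genes. In liver cKO cells 8 (47.1%) were called lower, against 19.7% of all genes. Markers of other cells were lower in liver cKO than in liver YFP+ libraries for 4 lists and higher for 1. The 4 lists summed to 26.3 to 27.2 against 91.8 to 104 FPKM for DP thymocytes, 9.83 to 14.97 against 641 to 742 FPKM for erythroid cells, 1.92 to 3.34 against 11.5 to 11.9 FPKM for B cells and 29.6 to 35.3 against 63.4 to 90.2 FPKM for myeloid cells. Of the marker genes tested, 7 of 7, 4 of 4, 2 of 2 and 1 of 4 in that order were called lower, against 19.7% of all genes. Rag2 and Pax5 were at 0 in all liver cKO libraries, but Pax5 was at 0, 0 and 0.092 FPKM in liver YFP+ libraries. The list that was higher was that of gamma-delta T cells, of which only Sox13 and Cd163l1 were in the deposited tables. The gamma-delta receptor genes of the list were absent there, so none could be read. Sox13 and Cd163l1 summed to 14.7 to 17.98 FPKM in liver cKO against 1.97 to 3.47 FPKM in liver YFP+ libraries, and 2 of 2 were called higher, against 7.49% of all genes. DP thymocyte markers were also lower in thymus cKO libraries, at 7.08 to 8.72 against 18.2 to 23.5 FPKM in thymus YFP+ libraries. The part of these signals in the results on JAK, STAT and SOCS genes was not tested.

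Among the 10 genes, Jak1 had the highest level per transcript length in all 4 groups and Stat5a the lowest. Jak1 averaged 122 ± 5.62 FPKM in thymus cKO and 145 ± 4.43 FPKM in thymus YFP+ cells, and 106 ± 1.14 FPKM in liver cKO libraries and 105 ± 8.95 FPKM in liver YFP+ cells (SD, n = 3). Jak1 did not overlap with the next gene in any group. Socs1 had rank 2 in both thymus groups, at 42.8 ± 10.3 FPKM in cKO and 57.4 ± 2.74 FPKM in YFP+ cells. In the liver Socs1 had rank 6 of 10 in cKO cells at 4.97 ± 1.56 FPKM, and rank 9 in YFP+ cells at 3.50 ± 0.718 FPKM. Its libraries overlapped with those of Jak3, the next lower gene, in liver cKO cells, and with those of both neighbours, Jak3 and Stat5a, in liver YFP+ cells. Stat6 and Stat4 changed places between the liver groups: Stat6 had rank 2 and Stat4 rank 3 in cKO cells, and Stat4 had rank 2 and Stat6 rank 3 in YFP+ cells, with no overlap between these neighbours in either group. Among the lower genes, neighbours overlapped more often, such as Stat4, Stat3, Socs3 and Jak3 in turn in thymus cKO cells, and Stat5b, Jak3, Socs1 and Stat5a in liver YFP+ cells.

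**Figure D1:**
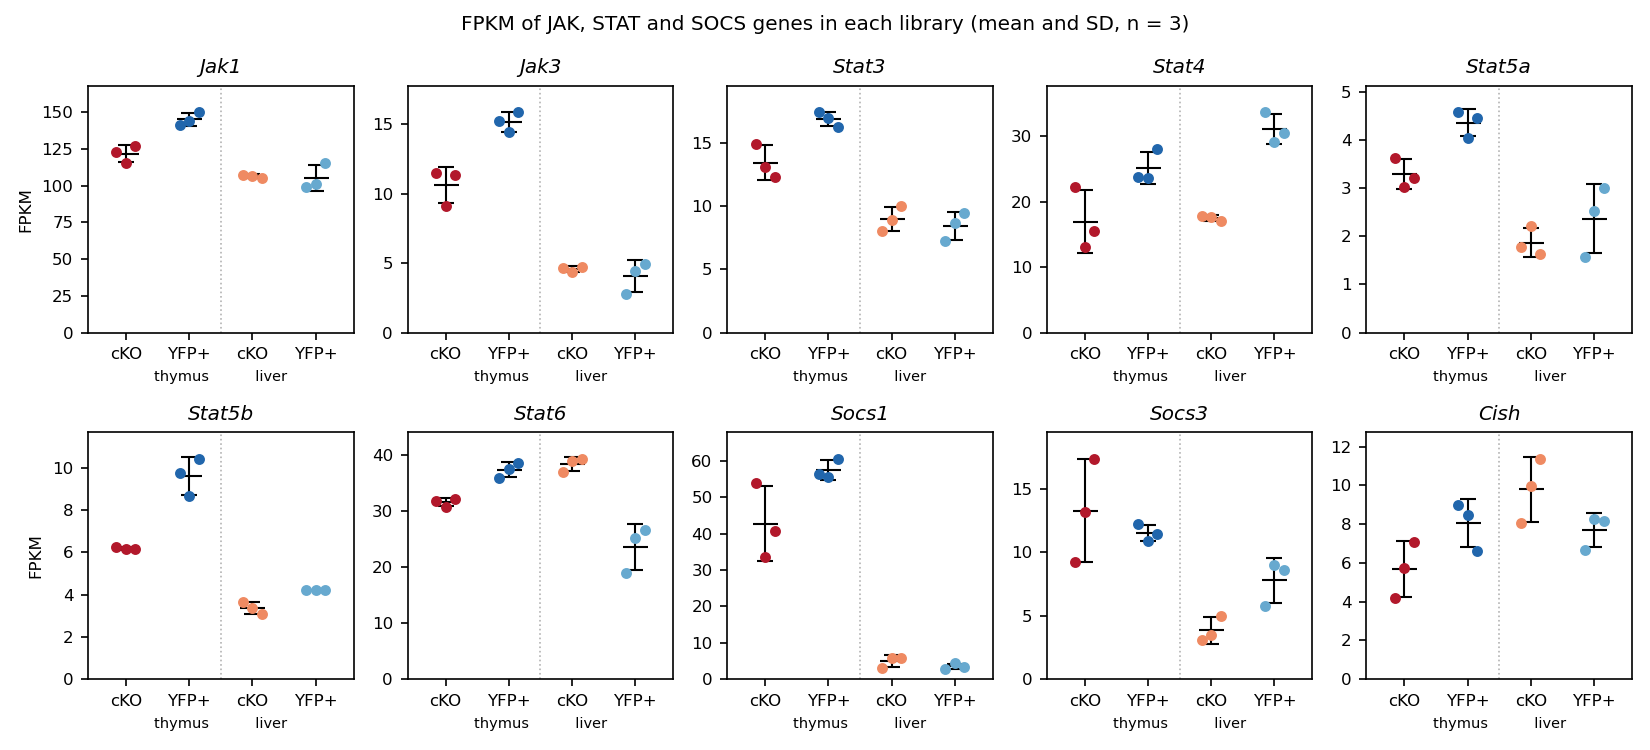
FPKM (vertical axis from 0, a separate scale per gene) of the 10 JAK, STAT and SOCS genes in thymus cKO, thymus YFP+, liver cKO and liver YFP+ cells. Each point is 1 library and the bars are the mean and SD of 3 libraries. Stat5b in the thymus and Stat4 and Stat6 in the liver show groups that stand clear of each other. Socs1 is far lower in both liver groups than in both thymus groups, a contrast between separately normalized tables that was not tested.

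In the thymus, 4 of the 10 genes were lower in cKO than in YFP+ NKT cells: Jak1, Jak3, Stat3 and Stat5b. No member was called higher, and 9 of the 10 differences were negative, each of those 9 with an unadjusted limma p below 0.05, which 37.6% of all genes tested had. The 4 are 40% of the members, whereas 15.7% of the 9097 genes tested were called in either direction, 13.1% lower and 2.64% higher. Their median difference was -0.38, against -0.16 for all genes tested, of which 79.6% were negative. This general shift depends on scaling: with libraries scaled by the median ratio, the median of all genes became -0.04, the share of called genes that were higher went to 46.4% in place of 16.8%, and of the 4 members only Stat5b was still called. Groups did not overlap for 8 of the 10 members, against 42.9% of all genes tested.

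Jak1 and Jak3 are the kinases that pair on receptors with the common gamma chain, Jak3 binding that chain itself. Jak3 was at 11.5, 9.13 and 11.3 FPKM in thymus cKO libraries, against 15.2, 14.4 and 15.9 FPKM in thymus YFP+ libraries. Every cKO library was below every YFP+ library. The difference was -0.48 (SE 0.101, adjusted p = 0.0194), or -0.32 relative to the median gene. The call was lost when any 1 of the YFP+ libraries was left out (adjusted p = 0.0501 to 0.0775) and under median-ratio scaling (0.0520). Jak1 was at 123, 116 and 127 FPKM in thymus cKO libraries, against 141, 144 and 150 FPKM in thymus YFP+ libraries, again without overlap. Its difference of -0.25 (SE 0.0676, adjusted p = 0.0418) was only -0.09 relative to the median gene, and without 1 library the call was kept only when cKO replicate 1 was left out (adjusted p = 0.0345 to 0.121).

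Among the STAT genes, Stat5b showed the firmest thymic difference. This factor, which with Stat5a carries interleukin 2, 7 and 15 signals, was at 6.25, 6.15 and 6.15 FPKM in thymus cKO libraries, against 9.78, 8.66 and 10.4 FPKM in thymus YFP+ libraries. The cKO libraries lay within 0.1 FPKM of each other, and all were below the lowest YFP+ library. Its difference was -0.56 (SE 0.0886, adjusted p = 0.00681), -0.40 relative to the median gene, a ratio of mean FPKM of 0.642, and it was called under every alternative scaling and without any 1 library. Stat5a, which lies beside Stat5b and Stat3 on chromosome 11, was at 3.63, 3.03 and 3.21 FPKM in thymus cKO libraries, against 4.57, 4.05 and 4.46 FPKM in thymus YFP+ libraries. The groups did not overlap, but the difference of -0.32 missed the threshold (SE 0.0951, adjusted p = 0.0534). In the protein-coding transcripts of the GENCODE annotation, 14.65% of the 50-base stretches of Stat5a also occur in Stat5b. Fragments from these stretches could have been divided between the pair by the authors' counting, and no other pair of members shared any.

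Stat3, the factor of interleukins 6, 21 and 23, was at 14.9, 13.1 and 12.3 FPKM in thymus cKO libraries, against 17.4, 17.0 and 16.3 FPKM in thymus YFP+ libraries. The groups did not overlap, the difference was -0.31 (SE 0.0896, adjusted p = 0.0498), and this call stood at the edge of the threshold. It was kept without cKO replicate 1 and lost without any other single library (adjusted p = 0.0128 to 0.148). Stat4, the factor of interleukin 12, was at 22.2, 13.0 and 15.6 FPKM in thymus cKO libraries, against 23.7, 23.7 and 27.95 FPKM in thymus YFP+ libraries. Its difference of -0.57 was as large as that of Stat5b, but cKO replicate 1 lay close to the YFP+ libraries and the call was missed (SE 0.172, adjusted p = 0.0567). Stat6, the factor of interleukin 4, was at 31.8, 30.8 and 32.1 FPKM in thymus cKO libraries and 35.9, 37.6 and 38.6 FPKM in thymus YFP+ libraries. Its difference of -0.24 was not called (SE 0.0682, adjusted p = 0.0512) and was -0.07 relative to the median gene.

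No inhibitor passed limma's adjusted threshold in the thymus, although Socs1 and Cish had an unadjusted p below 0.05. Socs1, which blocks the kinase domain of Jak1, Jak2 and Tyk2, was at 53.9, 33.6 and 40.8 FPKM in thymus cKO libraries, against 56.2, 55.4 and 60.5 FPKM in thymus YFP+ libraries. The groups did not overlap (difference -0.44, SE 0.151, adjusted p = 0.0767), and cKO replicate 1, the library with the high interferon-stimulated genes, was nearest to the YFP+ libraries. Without that library 8 members were called lower, adding Stat4, Stat5a, Stat6 and Socs1 (adjusted p = 0.00403 for Socs1 and 0.00255 for Stat4). Cish, which docks on activated receptors and is a classical STAT5 target, was at 4.18, 5.75 and 7.09 FPKM in thymus cKO libraries and 8.98, 8.49 and 6.63 FPKM in thymus YFP+ libraries. The groups overlapped through cKO replicate 3 and YFP+ replicate 3, and the difference was -0.45 (SE 0.171, adjusted p = 0.0989). Socs3, an inhibitor of signals through Il6st, was the only member with a positive thymic difference. It was at 9.25, 13.2 and 17.4 FPKM in thymus cKO libraries and 12.2, 10.9 and 11.5 FPKM in thymus YFP+ libraries, with cKO libraries on both sides of the YFP+ range (difference 0.15, SE 0.187, adjusted p = 0.570). The immediate early sum was in the same order as Socs3 over the 3 thymus cKO libraries, and also over the liver YFP+ libraries. It was in the reverse order over the liver cKO libraries and in another order over the thymus YFP+ libraries.

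**Figure D2:**
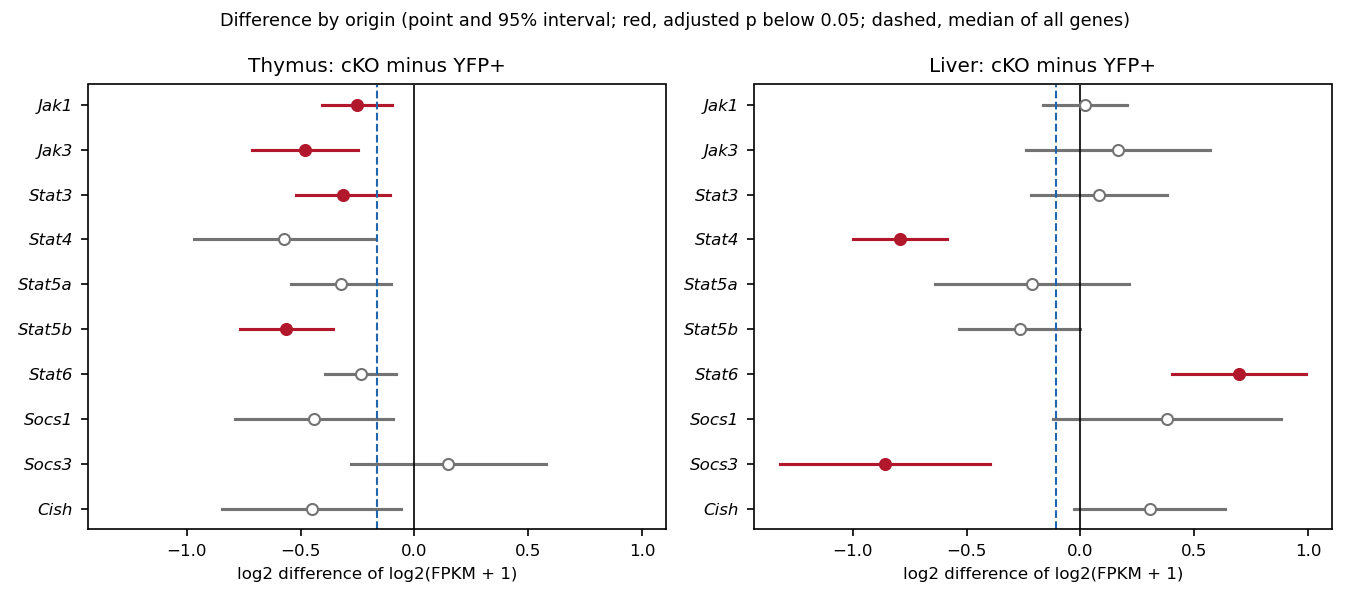
Difference of cKO minus YFP+ on the log2(FPKM + 1) scale (horizontal axis) for each gene in the thymus (left) and the liver (right), with its 95% interval. Red marks an adjusted p below 0.05, and the dashed line is the median of all genes tested (-0.16 in the thymus, -0.11 in the liver). In the thymus 9 of 10 points lie left of 0, and in the liver Stat6 lies to the right and Stat4 and Socs3 to the left.

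In the liver the members moved in both directions. Stat6 was higher in cKO than in YFP+ NKT cells, Stat4 and Socs3 were lower, and the other 7 genes were not called. This is 10% of the members called higher and 20% lower, near the background: of the 9591 genes tested, 27.2% were called, 7.49% higher and 19.7% lower. The members' median difference was 0.05, against -0.11 for all genes tested. Groups did not overlap for 4 of the 10 members, against 44.3% of all genes. Under median-ratio scaling the higher genes made up 48.6% of those called, and under quantile normalization 56.9%, in place of 27.5%, and Stat4, Stat6 and Socs3 kept their directions and calls under both.

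Stat4 was at 17.8, 17.7 and 17.0 FPKM in liver cKO libraries, against 33.6, 29.1 and 30.4 FPKM in liver YFP+ libraries. The cKO libraries lay within 1 FPKM of each other and far below the YFP+ range. The difference was -0.79 (SE 0.0897, adjusted p = 7.77e-04), a ratio of mean FPKM of 0.563. Stat6 was at 36.9, 39.0 and 39.3 FPKM in liver cKO libraries, against 18.9, 25.2 and 26.6 FPKM in liver YFP+ libraries. The groups were well separated, with YFP+ replicate 1 the lowest (difference 0.70, SE 0.128, adjusted p = 0.00617, ratio of mean FPKM 1.63). Relative to the median gene the differences were -0.68 for Stat4 and 0.80 for Stat6, and both were called without any 1 library and under each other alternative. Stat4 was lower in the liver group with the lower DP thymocyte, erythroid, B cell and myeloid marker sums and the higher gamma-delta sum, and Stat6 was higher there.

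Within a library, the ratio of Stat4 to Stat6 sets a pair of FPKM values side by side and does not depend on the scaling of the library. It was 0.481, 0.453 and 0.433 in liver cKO libraries, against 1.78, 1.16 and 1.14 in liver YFP+ libraries, so Stat6 exceeded Stat4 in every cKO library and Stat4 exceeded Stat6 in every YFP+ library. In the thymus the ratio was 0.700, 0.422 and 0.484 in cKO and 0.660, 0.630 and 0.725 in YFP+ libraries, below 1 throughout and with overlap. This ratio was chosen after the values were seen and is given with no test.

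**Figure D3:**
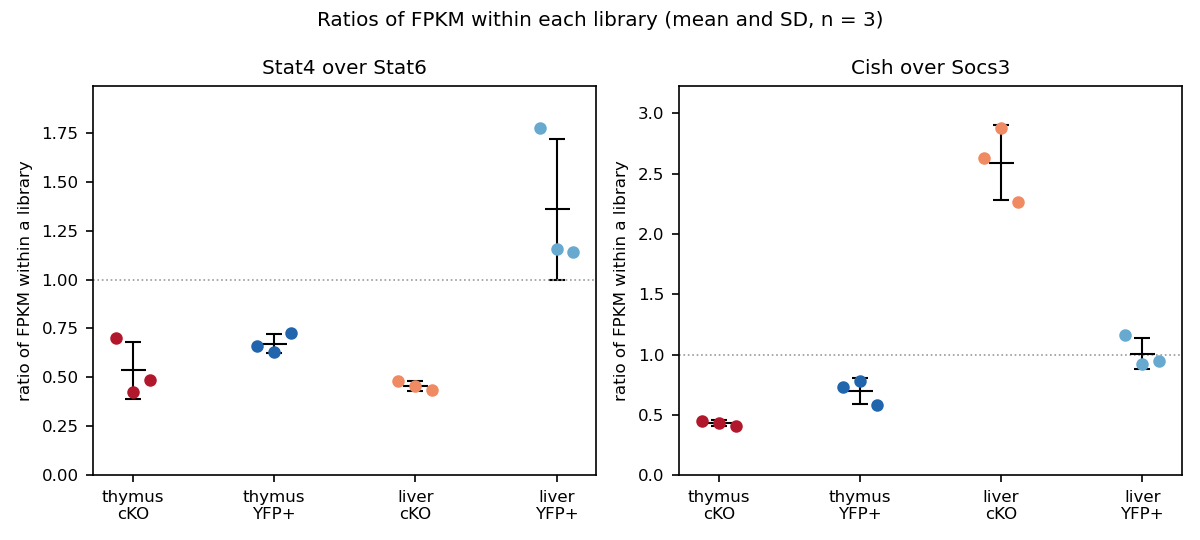
Ratio of FPKM within each library (vertical axis from 0) of Stat4 over Stat6 (left) and of Cish over Socs3 (right) in thymus cKO, thymus YFP+, liver cKO and liver YFP+ cells. Points are libraries, bars are the mean and SD of 3, and the dotted line marks equal FPKM. Stat4 over Stat6 exceeds 1 only in liver YFP+ libraries, and Cish over Socs3 is highest in liver cKO libraries, at 2.26 to 2.88.

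Socs3 was the only inhibitor called in the liver. It was at 3.06, 3.45 and 5.02 FPKM in liver cKO libraries, against 5.76, 8.97 and 8.63 FPKM in liver YFP+ libraries. The groups did not overlap, and the gap between cKO replicate 3 and YFP+ replicate 1 was small. The difference was -0.86 (SE 0.201, adjusted p = 0.0159), with a ratio of mean FPKM of 0.494. Leaving out any of 3 libraries ended the call, namely cKO replicate 1 (adjusted p = 0.0592), cKO replicate 2 (0.0589) or YFP+ replicate 2 (0.0641), as did dropping the filter on low values (0.0558). The immediate early sum moved the same way, 339 to 360 FPKM in liver cKO against 624 to 793 FPKM in liver YFP+ libraries, as did the myeloid marker sum, and the part of either in the Socs3 difference was not tested. Fos, one of the immediate early genes, was at 15.1 to 17.1 FPKM in liver cKO libraries and 66.99 to 79.4 FPKM in liver YFP+ libraries.

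Cish was at 8.05, 9.95 and 11.4 FPKM in liver cKO libraries and 6.67, 8.27 and 8.15 FPKM in liver YFP+ libraries, with overlap (difference 0.30, SE 0.145, adjusted p = 0.153). Cish over Socs3 was 2.63, 2.88 and 2.26 in liver cKO libraries, against 1.16, 0.922 and 0.944 in liver YFP+ libraries. In the thymus this ratio was the lower in cKO libraries, at 0.452, 0.435 and 0.408 in cKO against 0.734, 0.777 and 0.578 in YFP+ libraries. The ratio did not overlap between groups in either tissue, and it too was chosen after its values were seen. Socs1 was at 3.16, 5.82 and 5.92 FPKM in liver cKO libraries and 2.87, 4.28 and 3.35 FPKM in liver YFP+ libraries (difference 0.38, SE 0.219, adjusted p = 0.230).

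The remaining kinases and STATs were not called in the liver. Jak1 was at 107, 107 and 105 FPKM in liver cKO libraries and 99.0, 101 and 115 FPKM in liver YFP+ libraries, a difference of 0.02 with a 95% interval of -0.16 to 0.21. Jak3 was at 4.67, 4.34 and 4.74 FPKM in liver cKO libraries and 2.801, 4.46 and 4.97 FPKM in liver YFP+ libraries (difference 0.16, adjusted p = 0.533). Stat3 was at 8.05, 8.90 and 10.0 FPKM in liver cKO libraries and 7.28, 8.63 and 9.45 FPKM in liver YFP+ libraries (difference 0.08, adjusted p = 0.680). These 3 genes overlapped between the liver groups. Stat5b was at 3.64, 3.35 and 3.09 FPKM in liver cKO libraries, against 4.24, 4.23 and 4.24 FPKM in liver YFP+ libraries. It did not overlap and was lower in each cKO library than in any YFP+ library, as in the thymus, but was not called (difference -0.27, SE 0.116, adjusted p = 0.123). Stat5a was at 1.77, 2.21 and 1.62 FPKM in liver cKO libraries and 1.58, 2.52 and 2.995 FPKM in liver YFP+ libraries (difference -0.21, adjusted p = 0.435).

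Whether the effect of origin differed between the tissues was tested on all 12 libraries, as the liver difference minus the thymus difference. Of the 9739 genes tested, 15.1% were called, 9.14% with the more positive difference in the liver and 5.91% with the more negative one. Of the members, Stat6 was called positive and Socs3 negative, 10% of the members each way. Their median was 0.34, against 0.06 for all genes. For Stat6 the liver minus thymus difference was 0.93 (SE 0.150, adjusted p = 0.00187), made of 0.70 in the liver and -0.24 in the thymus. It was called without any 1 of the 12 libraries and under each other alternative. For Socs3 it was -1.01 (SE 0.301, adjusted p = 0.0410), made of -0.86 in the liver and 0.15 in the thymus, and this call was lost in 9 of the 12 fits that left out 1 library (adjusted p up to 0.0943).

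For Stat4 and Stat5b, lower in cKO libraries of both tissues, no difference between tissues was called. It was -0.22 for Stat4 (95% interval -0.68 to 0.24, adjusted p = 0.522) and 0.30 for Stat5b (95% interval 0.01 to 0.58, adjusted p = 0.148). Positive differences that missed the threshold were 0.64 for Jak3 (adjusted p = 0.0591), 0.82 for Socs1 (0.0773), 0.76 for Cish (0.0547), 0.39 for Stat3 (0.113) and 0.27 for Jak1 (0.0924). The difference of Stat5a was 0.11 (adjusted p = 0.768).

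**Figure D4:**
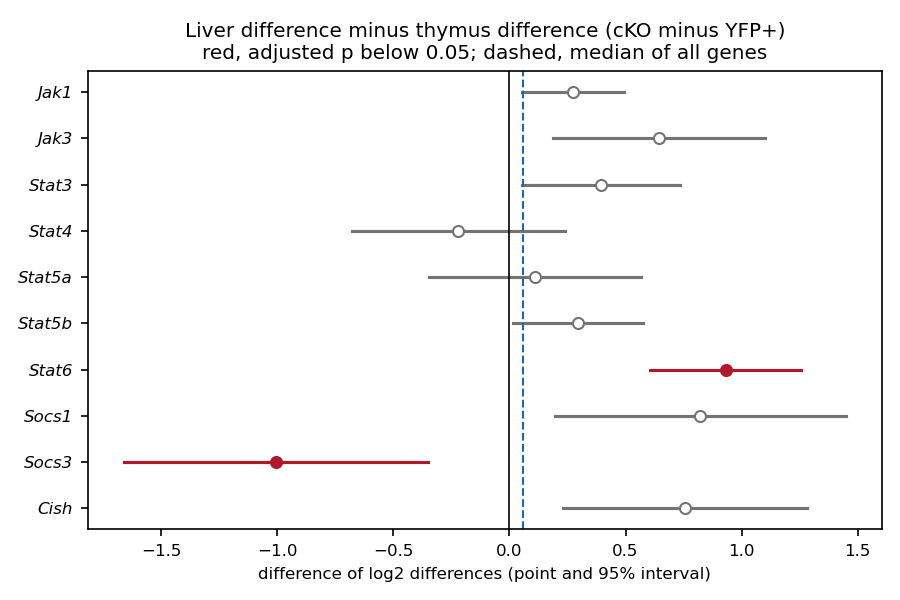
Liver difference minus thymus difference (each cKO minus YFP+ on the log2(FPKM + 1) scale, horizontal axis) for the 10 genes, with 95% intervals. Red marks an adjusted p below 0.05 and the dashed line the median of all genes, 0.06. Stat6 at 0.93 and Socs3 at -1.01 are the genes called, in opposite directions.

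Around these members, 72 further genes of the pathway were counted, and 58 of them were tested in the thymus and 60 in the liver. Thymus cKO cells had 5 of these genes higher and 13 lower, with a median of -0.11 (all genes -0.16). Liver cKO cells had 12 higher and 6 lower, with a median of -0.02 (all genes -0.11). These are 31% of the genes tested in the thymus, against 15.7% of all genes, and 30% in the liver, close to the 27.2% of all genes. The liver minus thymus difference was called positive for 13 and negative for 6 of 60, or 21.7% and 10%, against 9.14% and 5.91% of all genes.

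Of the ligands, 2 of 4 tested were higher and 1 lower in thymus cKO cells (50% and 25%, against 2.64% and 13.1% of all genes). In liver cKO cells 1 of 5 was higher and 1 lower (20% each way, against 7.49% and 19.7% of all genes). Ifng, the type 1 cytokine made under Stat4, was at 41.0, 71.8 and 63.2 FPKM in thymus cKO libraries, against 18.7, 24.3 and 11.5 FPKM in thymus YFP+ libraries (difference 1.66, adjusted p = 0.00824). In the liver it was lower, at 34.0, 31.1 and 32.9 FPKM in cKO against 59.6, 56.4 and 57.8 FPKM in YFP+ libraries (difference -0.81, adjusted p = 3.66e-04). The difference between tissues was -2.47 (adjusted p = 5.41e-04). The immediate early sum given above, which includes Hspa1a and Hspa1b, was likewise higher in thymus cKO and lower in liver cKO libraries. Over the thymus cKO libraries both this sum and Ifng were lowest in replicate 1. The part of the sum in the Ifng difference was not tested. Ifng thus lay opposite to Stat4 in the thymus and on the same side in the liver. Il4, which acts through Stat6, was at 0.432, 0.969 and 0.617 FPKM in thymus cKO libraries, against 4.44, 4.20 and 4.02 FPKM in thymus YFP+ libraries (difference -1.65, adjusted p = 2.41e-04). In the liver it was at 14.1, 14.6 and 8.73 FPKM in cKO and 20.1, 17.1 and 13.4 FPKM in YFP+ libraries, with overlap (difference -0.42, adjusted p = 0.168). Il2 was higher in cKO cells of both tissues, by 0.94 in the thymus (adjusted p = 0.00211) and 1.67 in the liver (adjusted p = 0.00181).

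Of the receptor chains, 6 of 15 tested (40%) were lower in thymus cKO cells, against 13.1% of all genes. In the liver, 3 of 18 were higher and 3 lower (16.7% each way), against 7.49% and 19.7% of all genes. Il2rb, the chain shared by the interleukin 2 and 15 receptors, was at 251, 273 and 276 FPKM in thymus cKO libraries, against 351, 346 and 398 FPKM in thymus YFP+ libraries (difference -0.45, adjusted p = 0.00998). In the liver it was higher, at 485, 490 and 520 FPKM in cKO against 337, 384 and 403 FPKM in YFP+ libraries (difference 0.41, adjusted p = 0.00857). The groups overlapped in neither tissue, and the difference between tissues was 0.86 (adjusted p = 5.73e-04). Il2rg was not called in either tissue, at 421 to 538 FPKM in thymus cKO and 420 to 492 FPKM in thymus YFP+ libraries, with differences of 0.02 and -0.13 (adjusted p = 0.920 and 0.209, thymus and liver). Il7r was lower in thymus cKO cells by a difference of -0.39 (adjusted p = 0.0471), with 0.14 in the liver (adjusted p = 0.195). Without 1 library its thymus call was kept only when cKO replicate 3 was left out (adjusted p up to 0.145), and it was lost under 4 of 6 other alternatives (up to 0.212). The other chains named in the thymus were Il23r at -1.53 (adjusted p = 7.13e-04), Il12rb1 at -0.62 (0.0213) and Il12rb2 at -0.54 (0.00406), and the last pair forms the interleukin 12 receptor. The call of Il12rb1 was kept without cKO replicate 1 or YFP+ replicate 1 and lost without any other single library (adjusted p up to 0.0876). Under the other alternatives it was kept in 4 of 6 (up to 0.0638). In the liver Il10ra was higher by 0.86 and Il21r by 0.43, and Il6ra was at -0.87 and Il2ra at -0.77 (adjusted p = 0.00172, 0.0219, 0.00363 and 0.0134). Il21r was not called when either cKO replicate 1 or 2, or YFP+ replicate 2, was left out (adjusted p up to 0.0758), and Il2ra not without cKO replicate 2 or YFP+ replicate 2 (up to 0.0530).

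Of the other kinases, Jak2 was lower in thymus cKO cells (difference -0.34, adjusted p = 0.0481), at 9.22, 7.28 and 8.07 FPKM in cKO against 10.3, 10.5 and 10.9 FPKM in YFP+ libraries, and its liver difference was 0.04 (adjusted p = 0.889). Without 1 library the thymus call of Jak2 was kept only when cKO replicate 1 was left out (adjusted p up to 0.136), and it was lost under 4 of 6 other alternatives (up to 0.205). Tyk2, which partners Jak2 on the interleukin 12 receptor, was higher in liver cKO cells, at 8.99, 10.4 and 9.99 FPKM in cKO against 3.74, 5.42 and 6.80 FPKM in YFP+ libraries (difference 0.80, adjusted p = 0.0134, or 0.0523 without cKO replicate 2). Its thymus difference was -0.20 (adjusted p = 0.207) and its difference between tissues 0.996 (adjusted p = 0.0113). Over the 3 thymus cKO libraries, Stat4 and Socs1 were in the order of the interferon-stimulated sum, highest in replicate 1 and lowest in replicate 2. Jak3, Stat5a, Stat5b, Jak2 and Tyk2 were in that order too, so it was not particular to Stat4 and Socs1. Jak1, Stat3, Stat6, Socs3 and Cish were in other orders.

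Of the other inhibitors, 2 of 15 tested (13.3%, against 13.1% of all genes) were lower in thymus cKO cells, the phosphatases Ptpn2 (-0.36, adjusted p = 0.0460) and Ptpn6 (-0.36, adjusted p = 0.0347). Without 1 library both calls were kept only when cKO replicate 1 was left out (adjusted p up to 0.137 for Ptpn2 and 0.102 for Ptpn6), and both were lost under 4 of 6 other alternatives. In the liver 3 of 13 tested were higher and 1 lower (23.1% and 7.69%, against 7.49% and 19.7% of all genes). Ptpn6 was higher there (0.34, adjusted p = 0.00775), Ptpn2 lower (-0.51, adjusted p = 0.0101) and Pias3 higher (0.48, adjusted p = 0.0390). Without 1 library the Pias3 call was kept only when YFP+ replicate 3 was left out (adjusted p up to 0.129), and it was kept under 4 of 6 other alternatives (up to 0.0912). The liver Ptpn2 call was lost under median-ratio and quantile scaling (up to 0.0846). Socs2, the SOCS family member nearest in kind to Cish, was at 6.03, 5.72 and 6.51 FPKM in liver cKO libraries, against 2.49, 3.77 and 3.37 FPKM in liver YFP+ libraries (difference 0.76, adjusted p = 0.00698). In the liver Socs2 was thus called higher and Socs3 lower in cKO cells. In the thymus Socs2 was not called (difference 0.24, adjusted p = 0.145).

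The list of STAT targets held 20 genes, of which thymus cKO cells had 3 higher and 3 lower, and liver cKO cells 4 higher and 1 lower. These are 30% in the thymus and 25% in the liver, against 15.7% and 27.2% of all genes. In the thymus Pim1, a kinase gene induced by STAT5, was at 8.63, 9.10 and 9.57 FPKM in cKO against 4.96, 6.33 and 3.28 FPKM in YFP+ libraries (difference 0.82, adjusted p = 0.0214), while Stat5b was lower there. The Pim1 call was lost when either cKO replicate 2 or 3, or YFP+ replicate 1, was left out (adjusted p up to 0.0727), and it was kept under 5 of 6 other alternatives (up to 0.0702). Junb was higher in thymus cKO cells by 0.74 (adjusted p = 0.0405) and is also an immediate early gene. Its call was kept without cKO replicate 1 or YFP+ replicate 2 and lost without any other single library (up to 0.121). Under the other alternatives Junb was called in only 3 of 6 (up to 0.123). Maf and Irf8 were lower in the thymus (-0.88 and -0.70, adjusted p = 0.00519 and 0.0120, for Irf8 0.0562 without YFP+ replicate 3). In the liver Bcl2, a survival gene, was at 32.7, 35.6 and 35.5 FPKM in cKO against 17.7, 18.2 and 19.3 FPKM in YFP+ libraries (difference 0.87, adjusted p = 3.94e-04). Bcl2 differed between tissues (0.82, adjusted p = 0.0199), its thymus difference being 0.05 (adjusted p = 0.828). The liver difference of Pim1 was 0.27 (adjusted p = 0.176). Myc was higher in liver cKO cells by 1.03 and Gzmb by 0.64, and Irf1, an interferon-induced gene, was at -0.87 (adjusted p = 7.93e-04, 7.64e-04 and 7.51e-04).

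**Figure D5:**
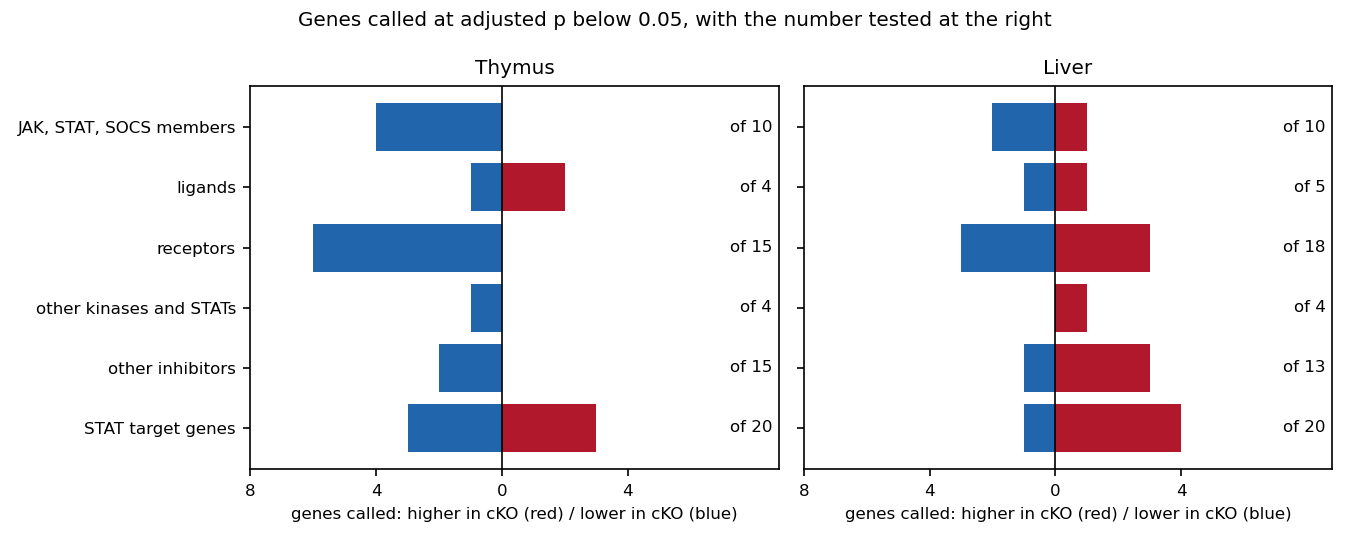
Number of genes called at an adjusted p below 0.05 (horizontal axis) as higher in cKO cells (red, right of 0) or lower (blue, left of 0), for the 10 members and 5 lists of other pathway genes, in the thymus (left) and the liver (right), with the number tested at the edge. In the thymus receptors have 6 genes lower, and in the liver they have 3 each way.

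The genes whose profile over the 12 libraries was closest to that of an inhibitor were found by the root mean square distance of log2(FPKM + 1), each profile centred within its tissue, among 8362 genes. For Socs1 they were Nckipsd (distance 0.114) and Snrnp200 (0.152), where the root mean square of the Socs1 profile itself was 0.315. For Socs3 they were Nudt8 (0.161) and 0610040F04Rik (0.163), against 0.396 for Socs3 itself. For Cish they were Epb4.1 (0.148) and Coro2a (0.152), against 0.272 for Cish itself. Nudt8, for example, averaged 4.57 ± 1.24 FPKM in liver cKO libraries and 9.50 ± 2.59 FPKM in liver YFP+ cells, and 5.56 ± 0.641 FPKM in thymus cKO and 5.05 ± 0.793 FPKM in thymus YFP+ cells (SD, n = 3).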

How the data were processed

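Per the labels' protocols, magnetic depletion removed cells with CD4 or CD8 ahead of sorting thymocytes, and cDNA was made from 10 ng of total RNA with a SMARTer low-input kit, followed by a TruSeq or a ThruPLEX library kit. Which of these kits a given library had is not stated. The authors deposited FPKM in 1 table per tissue, made with TopHat2 (version 2.8.0 as given) and Cufflinks 2.1.1 on mm9 per the submitters' processing notes. Gene annotation and strand are not given in the sources used here. FPKM carry no read totals, so depth is unknown and no counting interval is given. The summed FPKM of a library ranged between 187828 and 212688 for thymus and between 450430 and 558042 for liver. The thymus and liver tables each held 23284 genes, and 0 value columns were left unmapped.

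Values were used as deposited. limma-trend (limma 3.58.1, R 4.3.3) was fitted on log2(FPKM + 1) over genes averaging at least 1 FPKM in the libraries fitted, with Benjamini-Hochberg adjustment over all genes tested and a threshold of 0.05. The pseudocount understates the change of low genes. The fit was also run on simulated data with independent noise and no general shift between groups, unlike these data, and its outcome is not given here. Alternatives were a pseudocount of 0.1, no filter, median-ratio scaling, quantile normalization, array weights, a replicate block and leaving out each library. Same-numbered libraries did not deviate together (correlations between -0.0465 and 0.00763 for thymus, between -0.0634 and 0.0659 for liver), so the numbers were not treated as pairs. The members, gene lists, tests and named genes were chosen with earlier results of these data known. From each pathway list, up to 4 called genes per tissue whose groups did not overlap were named by size of the difference, beside Jak2, Tyk2, Socs2, Il2rb, Il2rg, Il7r, Pim1, Bcl2, Ifng and Il4. One gene of the naming rule is withheld and not reported here. Fos, the levels of Nudt8 and the ratios were added after values were seen.

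Marker lists not given with the results were these. NK cell and type 1 innate lymphoid genes summed to 227 to 316 FPKM in thymus cKO and 261 to 264 FPKM in thymus YFP+ libraries, and to 769 to 796 FPKM in liver cKO and 689 to 886 FPKM in liver YFP+ libraries. Only 2 of 7 gamma-delta T cell genes were in the deposited tables. Hepatocyte genes summed to at most 2.87 FPKM in any library, with Ttr and Fgb listed at 0 in all 3 libraries of both liver groups. The coreceptors Cd4, Cd8a and Cd8b1 summed to 0.390 to 0.968 FPKM in thymus cKO, 2.04 to 3.81 FPKM in thymus YFP+, 2.19 to 3.46 FPKM in liver cKO and 21.9 to 24.7 FPKM in liver YFP+ libraries.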

Additional observations from a re-analysis of the deposited data

Results flagged for a closer look

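Both results given here are members for which the test of the difference between tissues passed the threshold of limma's adjusted p. The difference of Stat6 between cKO and YFP+ cells was more positive in the liver than in the thymus by 0.93 on the log2(FPKM + 1) scale (adjusted p = 0.00187), with all 3 liver cKO libraries above and all 3 thymus cKO libraries below the YFP+ libraries of their tissue. The thymus difference of Stat6 alone, -0.24, was not called (adjusted p = 0.0512) and was -0.07 relative to the median gene. The difference of Socs3 was more negative in the liver by -1.01 (adjusted p = 0.0410), with all 3 liver cKO libraries below the liver YFP+ libraries and thymus cKO libraries on both sides of the thymus YFP+ range. The immediate early sum, which includes Hspa1a and Hspa1b, also turned round between tissues, though Hspa1a and Hspa1b themselves did not. The part of this sum in the Socs3 result was not tested. Both liver directions rest on the titles, which the description field contradicts.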

How the results depend on the processing

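Stat5b in the thymus, Stat4 and Stat6 in the liver and Stat6 between tissues kept direction and call under every alternative run. The 4 members called in the thymus became 2 with no filter, 1 under median-ratio scaling, 1 under quantile normalization, 8 with array weights, and 1 to 8 when 1 library was left out. The 1429 thymus genes called became 801, 786, 826 and 2798 under the same settings and 472 to 2408 without 1 library, and the 18 pathway genes 11 with no filter and 9 to 24 without 1 library. The 2607 liver genes called became 3940 with array weights and 1539 to 2640 without 1 library. Between tissues, the 2 members called became 1 with no filter, 4 under quantile normalization, 6 with array weights and 1 to 3 without 1 library, the 1466 genes became 2634 with array weights, and the 19 pathway genes 12 to 21 without 1 library. In the liver Jak1 was also called under quantile normalization (adjusted p = 0.0438), and Socs1 without cKO replicate 1 (0.0469). The cause of these changes was not tested.

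A fit with the replicate number as a block called 2 members (Jak3 and Stat5b), 787 genes and 11 pathway genes in the thymus. Same-numbered libraries did not deviate together, but this cannot show that the libraries were unpaired. Why the block fit called fewer genes was not tested. In the difference between tissues the block added Socs1 (adjusted p = 0.0438).

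The differences that changed sign were of genes not called. Il2rg became -0.0094 in the thymus with array weights, 0.11 in the liver and 0.030 between tissues under quantile normalization. Without 1 library, differences spanned 0 in the thymus for Socs3 (-0.053 to 0.37), Bcl2 (-0.066 to 0.27) and Il2rg (-0.093 to 0.084), in the liver for Jak1 (-0.020 to 0.089), Jak3 (-0.032 to 0.29), Stat3 (-0.011 to 0.16) and Jak2 (-0.070 to 0.18), and between tissues for Stat5a (-0.070 to 0.25). Depth is unknown, so its limit on low genes such as Stat5a cannot be stated.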
